A study of Homo sapiens with 10 samples.

Results

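Fatty acid and phospholipid synthesis was followed through 46 genes in A549 cells, a human lung adenocarcinoma line. The genes were taken by name from a list of enzymes that make fatty acids, phosphatidylcholine and the other lipids found in surfactant, together with the lipid droplet coat gene PLIN2. These genes and the related lists below were chosen with earlier results of these data known. Shares of a list set against all genes therefore describe that list and are not independent tests. All 46 names had a row in the deposited count table of 33551 rows, and 45 of them passed the filter on low counts that left 17978 genes for testing. PCYT1B, a second gene for the rate-limiting enzyme of phosphatidylcholine synthesis, did not pass, with 0 to 8 counts in a library.

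The labels describe 5 A549 lines, which are WT, an ABCA3 knockout (KO) and lines that carry the ABCA3 variants L101P, E292V or E690K. ABCA3 is the transporter that loads phospholipids into the lamellar bodies of alveolar type 2 cells. Per the labels, each line gave 1 untreated library and 1 made after VSVG LV-ABCA3:GFP, a lentiviral vector for an ABCA3 and GFP fusion, had been left on the cells overnight (multiplicity of infection 20). The series title sorts the variants into type 1 and type 2, terms that in the ABCA3 field stand for misrouted and for inactive protein, and L101P was set against the mean of E292V and E690K for that reason. The labels do not say whether a line is 1 clone, and no genotype has a second line.

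Libraries held 59430095 to 96811421 counts, of which the 46 genes took 0.432% to 0.546%. Levels below are in CPM, counts brought to a common library size with edgeR's TMM factors. Summed levels of 5 lung epithelial markers were 5364 to 11797 CPM, against 20.4 to 45.2 for 4 leukocyte, 16.3 to 119 for 5 fibroblast and 0.0971 to 1.05 for 3 endothelial markers. Some markers differed between lines: edgeR's joint test called 4 of the 5 epithelial, 2 of the 3 fibroblast and 1 of the 2 leukocyte markers tested, against 13.0% of all genes. The epithelial sum was 5879 and 5364 CPM in untreated and transduced E292V, 6835 and 6268 in WT, and 7474 to 11797 in the other 6 libraries. The fibroblast sum, nearly all COL1A1, was 75.4 and 119 in E292V, 28.0 and 46.8 in WT, and 16.3 to 35.3 in the other 6, with COL1A2 at 0 outside E292V. The leukocyte sum, nearly all CD68, was 20.4 and 23.6 in E292V, 25.5 and 23.2 in WT, and 29.6 to 45.2 in the other 6. SCD, FADS2 and AGPAT2 below also separate E292V and WT from those 6 libraries, and the part of these markers in those results was not tested. Defining alveolar type 2 markers were nearly absent, with SFTPB at no more than 0.128 and SFTPC at no more than 0.335 CPM. The KO pair went against its labels: ABCA3 stood at 600.2 CPM in the library labelled untreated KO and at 26.0 in the library labelled transduced KO, and the EGFP row at 37.9 and 0.050. EGFP was also present in other libraries labelled untreated, at 69.7 CPM in WT, 20.2 in E292V, 16.5 in E690K and 1.00 in L101P, against 151, 66.0, 18.5 and 36.9 after transduction. The TDTOMATO row, for a second fluorescent protein, was at 0 in both libraries labelled KO and at 2.86 to 12.7 CPM in every other library, WT included. The pair labelled KO thus differed from WT in this row too, and its part in the results for that pair was not tested. ABCA3 was at 356 and 602 CPM in untreated and transduced WT, 1151 and 922 in L101P, 965 and 1021 in E292V, and 900.2 and 994 in E690K. Results are also given with the labels of the KO pair exchanged or without that pair where this changes a call. Total RNA from a culture cannot tell fewer cells with a transcript from less transcript in each cell.

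Cells build palmitate from acetyl-CoA and malonyl-CoA, lengthen and desaturate it in the endoplasmic reticulum, activate it to acyl-CoA, and attach it to glycerol phosphate to give phosphatidic acid. From there, choline, ethanolamine, serine or glycerol head groups are added, and acyltransferases exchange the acyl chains, which in alveolar type 2 cells yields the disaturated phosphatidylcholine of surfactant. The transcription factors SREBF1 and SREBF2 drive many of these genes, and SREBF2 also drives cholesterol synthesis.

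Per kilobase of exon, the 46 genes spanned a wide range of levels. ACLY, which splits citrate into acetyl-CoA, had the highest mean over the 10 libraries at 178 CPM per kilobase, ahead of SCD, the delta-9 desaturase, at 101.5. AGPAT2, which acylates lysophosphatidic acid, followed at 76.1, ELOVL1, an elongase of very long chains, at 47.5 and FASN, the fatty acid synthase, at 44.8. Lowest were DGAT2, which makes triacylglycerol, at 0.530, the acyl-CoA synthetase ACSL5 at 0.144 and PCYT1B at 0.0033. LPCAT1, the acyltransferase tied to surfactant phosphatidylcholine, was at 20.2 CPM per kilobase. These levels differ between genes by much more than any gene differed between lines.

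**Figure D1:**
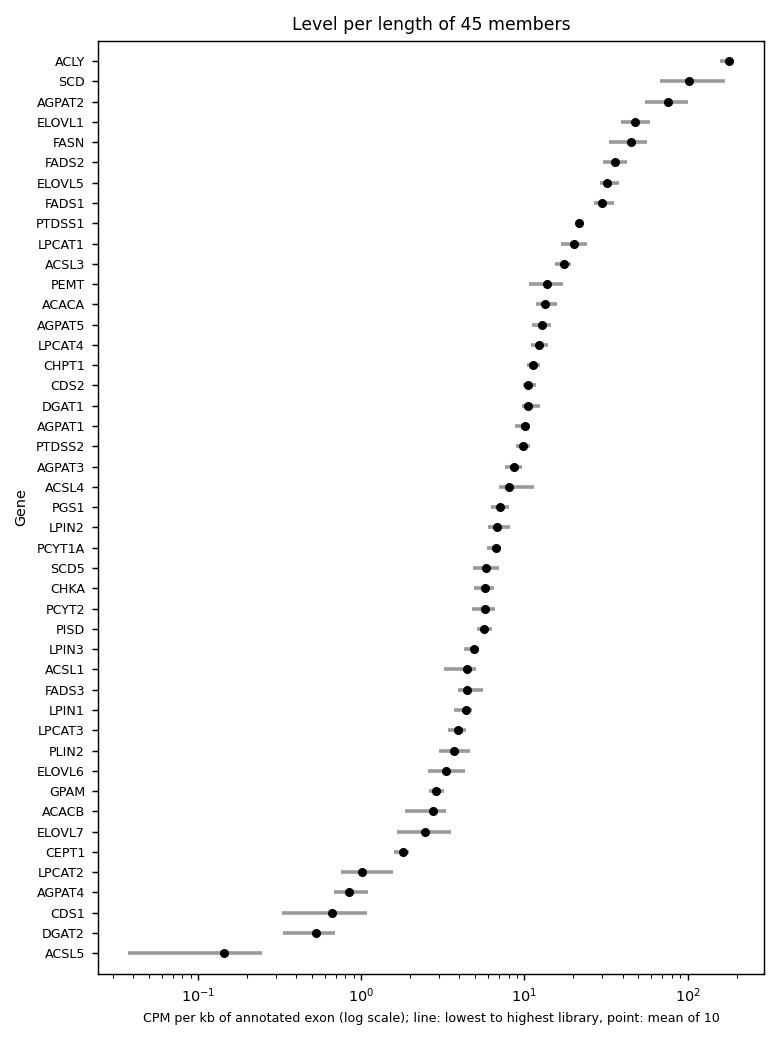
Mean level of 45 member genes over the 10 libraries in CPM per kilobase of merged exons on a log axis, ordered by level and without PCYT1B (mean 0.0033); grey lines run from the lowest to the highest library. ACLY at 178 and SCD at 101.5 are the highest and ACSL5 at 0.144 is the lowest shown.

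Levels of most members varied little across the 10 libraries. The ratio of the highest to the lowest library had a median of 1.34 over the 45 genes tested and stayed below 1.5 in 29 of them. Phosphatidylserine synthase PTDSS1 was the steadiest, at 131 to 142 CPM. Ratios above 2 were seen in 6 genes, which were SCD, the elongase ELOVL7, ACSL5, the CDP-diacylglycerol synthase CDS1, the lysophosphatidylcholine acyltransferase LPCAT2 and DGAT2. ACSL5 rested on 13 to 80 counts a library.

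**Figure D2:**
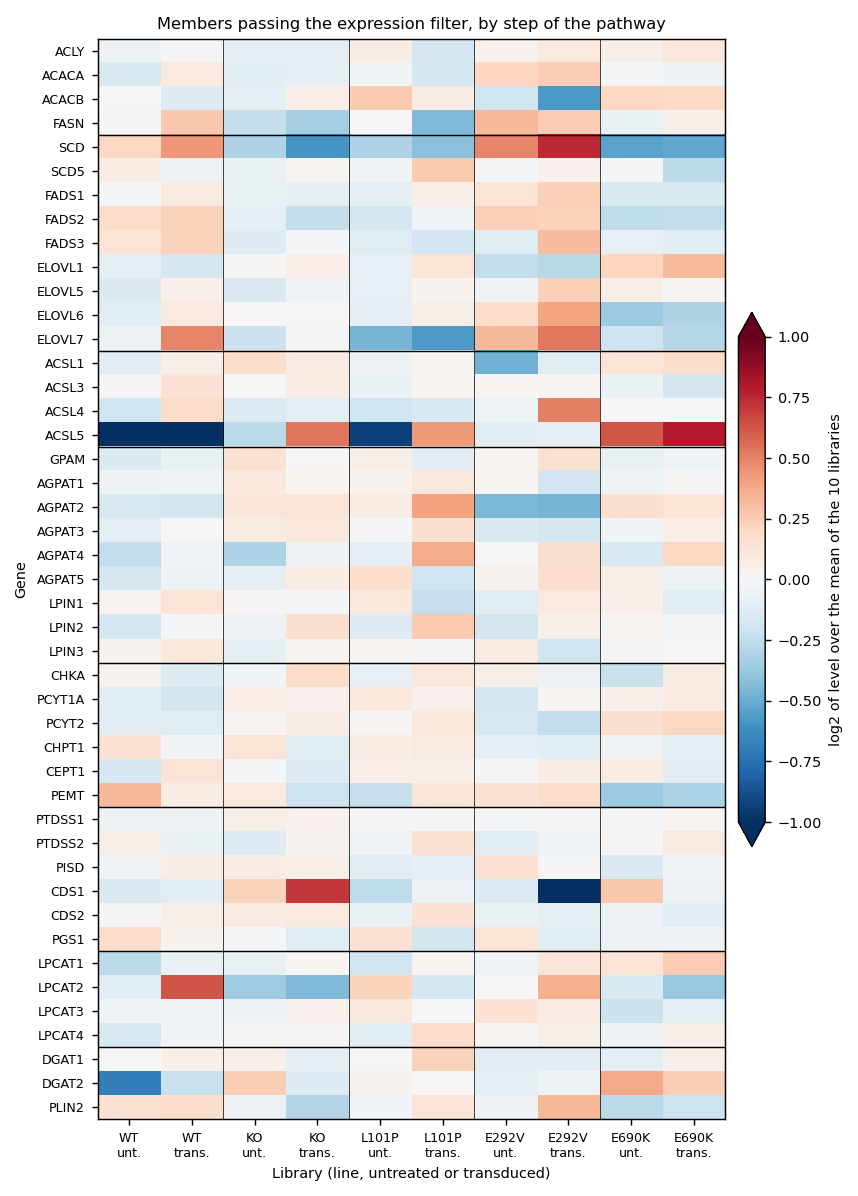
Log2 level of 45 member genes in each of the 10 libraries relative to the gene's mean over the libraries, ordered by role, with colour capped at 1 on either side. SCD and ELOVL7 are above their means in both libraries of WT and E292V except ELOVL7 in untreated WT, and most other rows are pale.

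Of the 11 members called as different between lines in the fit reported here, 6 act in desaturation and elongation. In a test of any difference among the 5 lines, edgeR's quasi-likelihood test called 11 of 45 members at an adjusted p under 0.05 (24.4%), against 13.0% of all genes tested. The 2 shares are descriptive, as the members were chosen with earlier results known. Of these, 6 were among the 9 desaturases and elongases (SCD, FADS1, FADS2, ELOVL1, ELOVL6 and ELOVL7) and 2 among the 4 genes of fatty acid synthesis (FASN and ACACB). AGPAT2, PCYT2 and LPCAT1 were the others. None of the 4 acyl-CoA synthetases, the 6 genes of serine and glycerol head groups or the 3 triacylglycerol and droplet genes was called. The count of 11 rested on several pairs of libraries: it was 3 without the E292V pair, 4 without E690K, 19 without L101P, 8 without the pair labelled KO and 7 with that pair's labels exchanged, and 18 with no filter on low counts. Shares of all genes called in these alternative fits are not given, so these changes cannot be read as particular to the members. SCD and FADS2 were called in each of the 10 alternatives run. The same 6 desaturases and elongases were the only ones among 14 members called by DESeq2, 18 with no filter and 19 without L101P. With 1 library a line and treatment, these tests judge differences between lines against the departure of the 5 pairs from a common vector effect, and they speak of these lines, not of genotypes. Below, called means called by edgeR in this fit, and calls by DESeq2 or under other settings are named as such.

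Against WT, SCD and FADS2 were lower in the pair labelled KO, in L101P and in E690K, and no member was called in E292V. In the pair labelled KO, these 2 of 45 members were called (4.44%, against 1.80% of all genes), both lower (0.990% of all genes were called lower). In L101P, 4 members were called (8.89%, against 3.94%), with SCD, FADS2 and ELOVL7 lower (1.61% of all genes) and AGPAT2 higher (2.33%). In E690K, 5 were called (11.1%, against 5.38%), with SCD, FADS2 and PEMT lower (2.33% of all genes) and ELOVL1 and LPCAT1 higher (3.05%). In E292V, 0 were called by edgeR, against 1.05% of all genes, and 8 of 45 had an unadjusted p under 0.05 (17.8%, against 10.3%). DESeq2 also called 0 of the members there, against 2.76% of the genes it gave an adjusted p. Without the L101P pair, 5 members were called in the pair labelled KO, 1 in E292V (AGPAT2) and 11 in E690K. Without the E690K pair, 1 was called in the pair labelled KO and 2 in L101P, and with the KO labels exchanged the counts were 1 (KO), 1 (L101P) and 3 (E690K). Without the pair labelled KO, 2 were called in L101P and 4 in E690K. Shares of all genes in these alternative fits are not given, so the changes in count do not speak of the members in particular. These 4 comparisons share the same WT libraries and are not independent of each other. The median log2 fold change of the 45 members lay near 0 throughout: -0.04 (KO), 0.03 (L101P), 0.03 (E292V) and 0.00013 (E690K), against -0.01, -0.01, -0.00065 and -0.02 over all genes tested.

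**Figure D3:**
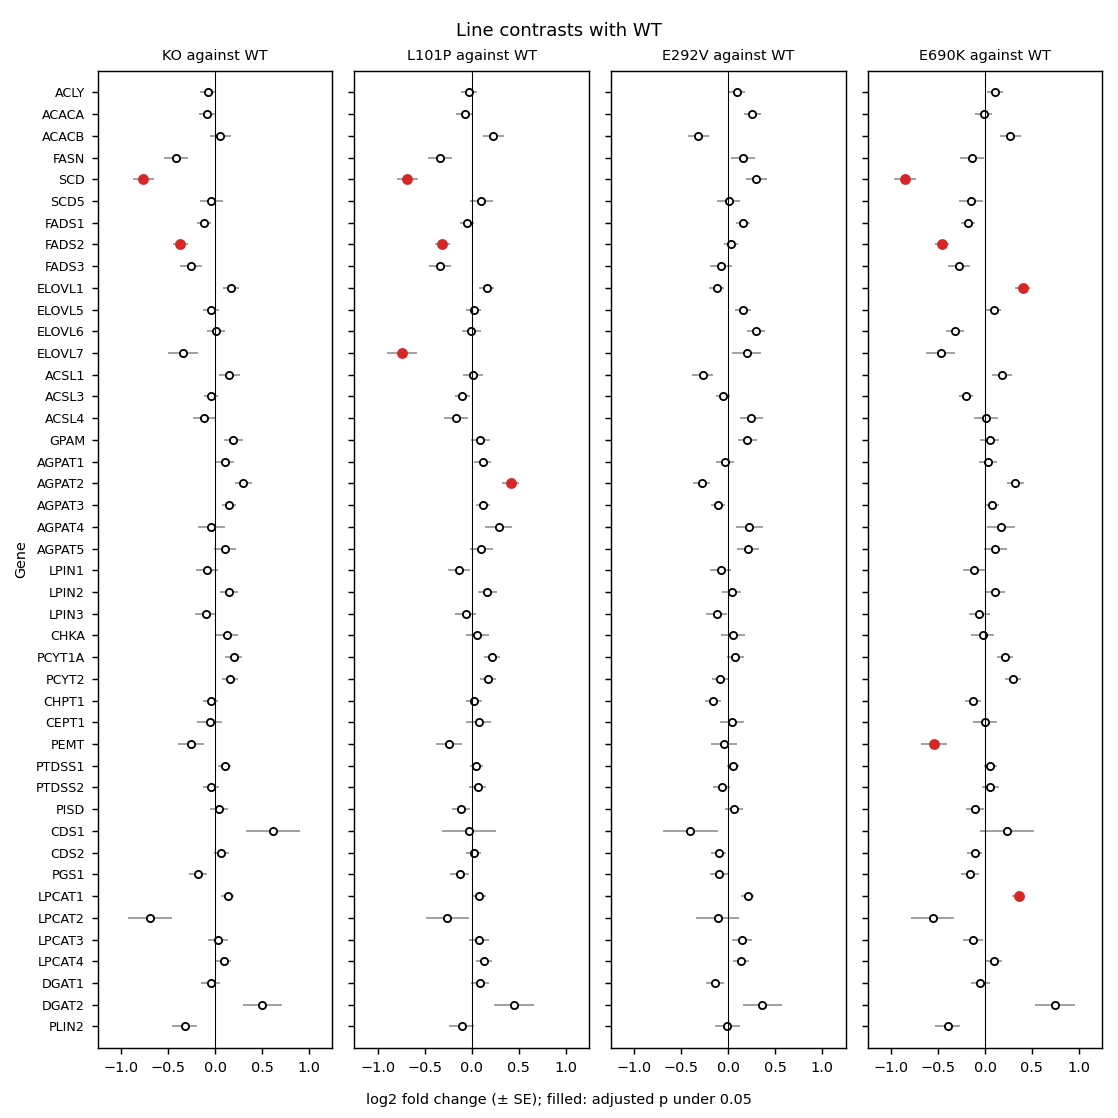
Log2 fold change against WT, from the fit over 10 libraries, of 44 member genes in the 4 other lines, without ACSL5 and PCYT1B; lines show 1 SE and filled points are called at an adjusted p under 0.05. SCD lies at -0.77, -0.69 and -0.85 in the pair labelled KO, L101P and E690K and at 0.30, not called, in E292V.

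SCD, the desaturase that makes oleate and palmitoleate, gave the clearest differences. Its gene spans 100347124 to 100364834 of chromosome 10, plus strand (GRCh38, GENCODE 29). SCD was at 629 CPM in untreated and 734 in transduced WT cells, 439.8 and 361 in the pair labelled KO, 440.0 and 407 in L101P, 765 and 913 in E292V, and 375 and 379.9 in E690K. The 6 libraries of the pair labelled KO, L101P and E690K all lay below both WT libraries, and both E292V libraries lay above them. Relative to WT the log2 fold change by edgeR was -0.77 (SE 0.114, adjusted p = 0.00597) in the pair labelled KO, or 0.589 of the WT level. It was -0.69 in L101P (SE 0.114, edgeR adjusted p = 0.00749), 0.622 of WT, and -0.85 in E690K (SE 0.114, edgeR adjusted p = 0.00112), 0.554 of WT. In E292V it was 0.30 (SE 0.113, 95% interval 0.054 to 0.544, edgeR adjusted p = 0.338), and the fit with no filter on low counts called it at the same size. The 3 calls against WT held in the 8 alternatives run for each, with adjusted p up to 0.0294, 0.0291 and 0.0018.

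**Figure D4:**
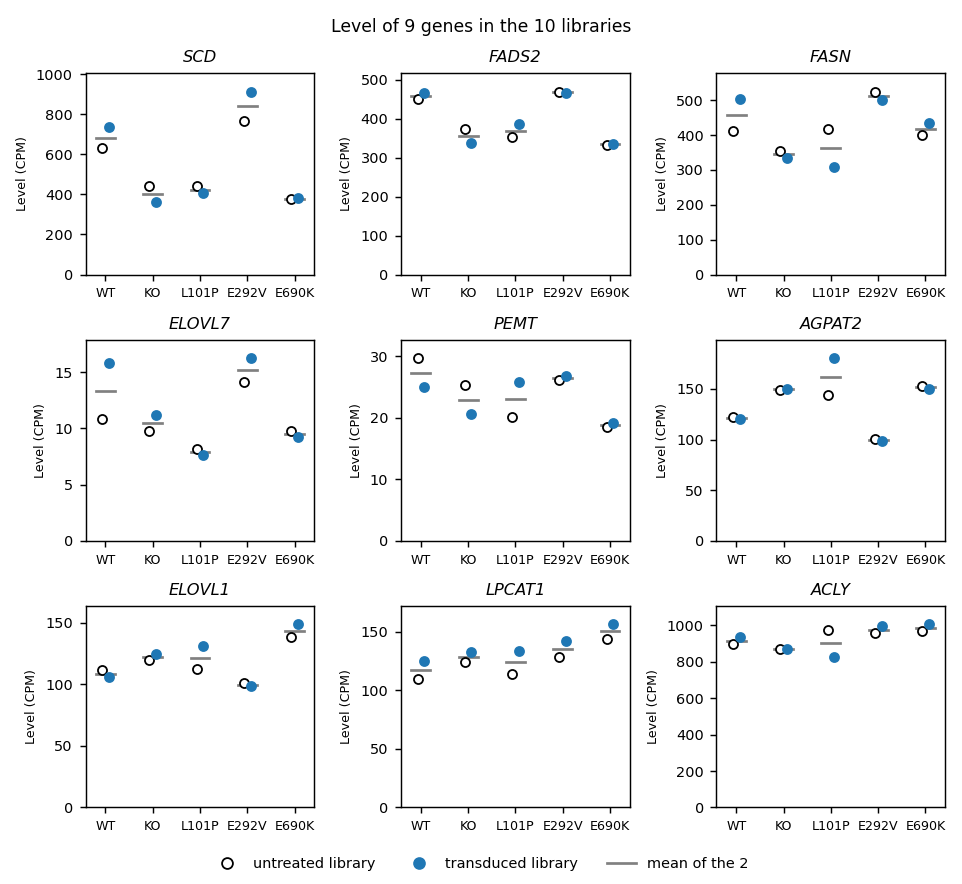
Levels in CPM of 9 member genes in the untreated (open) and transduced (filled) library of each line, with the mean of each pair as a bar. SCD and FADS2 are lower in the pair labelled KO, L101P and E690K than in WT and E292V, while AGPAT2 is lowest in E292V at 99.0 and 100.3 CPM.

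The start regions of SCD, FADS2 and AGPAT2 are shown because these genes differed between lines in opposite directions and the differences of 2 of them recurred across contrasts. Each runs 5′ to 3′ on the gene's own strand from 250 bases before to 50 bases after the RefSeq start (GRCh38.p14), and capitals mark a CCAAT box. SCD is from chr10:100346983-100347282 on the plus strand, FADS2 from chr11:61815953-61816252 on the plus strand and AGPAT2 from chr9:136687408-136687707 on the minus strand.
SCD: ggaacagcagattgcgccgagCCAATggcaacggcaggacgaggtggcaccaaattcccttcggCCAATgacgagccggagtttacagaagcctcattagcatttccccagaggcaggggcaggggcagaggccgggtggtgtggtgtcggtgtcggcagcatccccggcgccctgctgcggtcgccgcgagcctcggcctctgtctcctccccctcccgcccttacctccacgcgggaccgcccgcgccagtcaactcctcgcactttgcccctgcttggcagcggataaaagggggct
FADS2: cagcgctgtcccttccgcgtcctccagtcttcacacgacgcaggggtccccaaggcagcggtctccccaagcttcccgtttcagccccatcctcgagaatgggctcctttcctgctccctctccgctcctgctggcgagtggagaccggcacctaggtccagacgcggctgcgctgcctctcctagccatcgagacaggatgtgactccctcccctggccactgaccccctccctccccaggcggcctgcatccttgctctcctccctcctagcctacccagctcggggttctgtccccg
AGPAT2: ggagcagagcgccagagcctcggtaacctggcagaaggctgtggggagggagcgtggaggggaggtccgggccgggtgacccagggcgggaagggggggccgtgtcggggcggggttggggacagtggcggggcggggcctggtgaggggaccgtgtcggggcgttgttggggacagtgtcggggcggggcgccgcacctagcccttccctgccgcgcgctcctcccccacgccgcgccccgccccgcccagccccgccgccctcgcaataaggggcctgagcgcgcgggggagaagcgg
The SCD window holds CCAAT at positions -229 and -186 from the start, and the FADS2 and AGPAT2 windows hold no CCAAT, no E-box (CACGTG) and no sterol regulatory element core (TCACNCCAC), searched on both strands. Of the 46 genes, 38 had such a window. CCAAT was in 14 of them (36.8%, against 35.7% of 27305 RefSeq windows), CACGTG in 2 (5.26%, against 7.43%), namely the elongase gene ELOVL5 and PLIN2, and TCACNCCAC in 0 (against 1.15%). A match here describes letters in a window and not a bound site. The lack of a match covers only these exact letters in this window, and variant or more distant sites were not searched.

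FADS2, the delta-6 desaturase that opens the path to long polyunsaturated chains, showed the same order of lines at a smaller size. The gene spans 61792980 to 61867354 of chromosome 11, plus strand. FADS2 was at 452 and 467 CPM in untreated and transduced WT, 373 and 337 in the pair labelled KO, 353 and 386 in L101P, 469.7 and 467 in E292V, and 333 and 335.5 in E690K. Again the 6 libraries of the pair labelled KO, L101P and E690K lay below the 4 of WT and E292V. The edgeR log2 fold change against WT was -0.37 (SE 0.0782, adjusted p = 0.0346) in the pair labelled KO and -0.46 (SE 0.0782, adjusted p = 0.00521) in E690K. In L101P it was -0.31 (SE 0.0781, edgeR adjusted p = 0.044), a call lost in 5 of 8 alternatives, where adjusted p reached 0.100. The 5 were median-ratio size factors, exchanged KO labels, and the fits without the pair labelled KO, without E292V and without E690K. The call in the pair labelled KO was lost without the E690K pair (adjusted p = 0.0888) and with the KO labels exchanged (adjusted p = 0.0538), and that in E690K held in the 8 run. Exons of FADS2 overlap those of FADS1 on the other strand and of FEN1, a DNA repair nuclease gene, on the same strand. FEN1 itself had log2 fold changes of 0.02 to 0.09 against WT, with edgeR adjusted p of 0.677 to 0.972.

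FADS1, the delta-5 desaturase beside FADS2, differed among lines in the joint test (edgeR adjusted p = 0.0443) but in no single contrast with WT. It was at 302 and 325 CPM in WT, 290.0 and 288 in the pair labelled KO, 286 and 321 in L101P, 337 and 362 in E292V, and 275 and 275 in E690K. Both E292V libraries were the highest and both E690K libraries the lowest. The joint call was lost in 5 of 10 alternatives, which were median-ratio size factors (adjusted p = 0.0504), exchanged KO labels (0.0754), and the fits without the pair labelled KO (0.0961), without E690K (0.17) and without E292V (0.495). FADS3 (24.7 to 34.9 CPM) and SCD5, a second stearoyl-CoA desaturase (20.9 to 29.9 CPM), were not called in the joint test.

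Among the elongases, 1 gene was lower in L101P and another was higher in E690K. ELOVL7, which extends saturated long chains, was at 10.8 and 15.8 CPM in WT, 9.73 and 11.2 in the pair labelled KO, 8.18 and 7.61 in L101P, 14.1 and 16.3 in E292V, and 9.76 and 9.25 in E690K. Both L101P libraries were below the other 8. ELOVL7 was lower than WT in L101P by edgeR (log2 fold change -0.74, SE 0.159, adjusted p = 0.0239), a call lost with the KO labels exchanged (adjusted p = 0.0529). Its joint call (edgeR adjusted p = 0.00785) was lost without the E292V pair (0.0883). In E690K it was not called (-0.47, edgeR adjusted p = 0.111) except with no filter and without the L101P pair. ELOVL1, which makes very long saturated chains, was at 111 and 106 CPM in WT, 119.9 and 124 in the pair labelled KO, 112 and 131 in L101P, 100.6 and 98.4 in E292V, and 139 and 149 in E690K. The E690K libraries were the highest and the E292V libraries the lowest. In E690K ELOVL1 was higher than WT (edgeR log2 fold change 0.40, SE 0.0811, adjusted p = 0.0136), and this held in the 8 alternatives run. Its joint call (edgeR adjusted p = 0.00629) was lost without E292V (0.0547) and without E690K (0.129).

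ELOVL6, which turns palmitate into stearate, was called in the joint test (edgeR adjusted p = 0.012) and in no contrast with WT. Its levels were 22.2 and 25.7 CPM in WT, 24.0 and 24.2 in the pair labelled KO, 22.6 and 25.1 in L101P, 27.1 and 31.7 in E292V, and 18.7 and 19.5 in E690K. E292V held the highest pair and E690K the lowest. The joint call was lost without E292V (adjusted p = 0.177) and without E690K (adjusted p = 0.164). Without the L101P pair, ELOVL6 was called in E690K. ELOVL5, which extends polyunsaturated chains, was at 111 to 145 CPM and was not called.

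Of the enzymes that make palmitate, edgeR called FASN and ACACB in the joint test and did not call ACACA or ACLY. FASN (chromosome 17, 82078333 to 82098332, minus strand) was at 413 and 505 CPM in WT, 355 and 334 in the pair labelled KO, 418 and 309.6 in L101P, 525 and 500.0 in E292V, and 401 and 434.5 in E690K. The pair labelled KO lay below WT, while L101P and E690K overlapped WT. FASN was called in the joint test (edgeR adjusted p = 0.0334), which was lost without the E292V pair (adjusted p = 0.24), without the pair labelled KO (0.148), without E690K (0.0605) and with the KO labels exchanged (0.0593). Against WT it was not called in the pair labelled KO (edgeR log2 fold change -0.42, SE 0.127, 95% interval -0.693 to -0.14, adjusted p = 0.137). It was -0.34 in L101P (edgeR adjusted p = 0.172), 0.16 in E292V (0.768) and -0.14 in E690K (0.634). DESeq2, the fit with no filter and the fit without L101P did call FASN lower in the pair labelled KO, and the fit with no filter did so in L101P.

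ACACB, the acetyl-CoA carboxylase whose malonyl-CoA restrains fatty acid oxidation, was called in the joint test (edgeR adjusted p = 0.0204). It was at 40.2 and 36.7 CPM in WT, 37.6 and 41.9 in the pair labelled KO, 48.1 and 42.1 in L101P, 34.8 and 27.0 in E292V, and 46.3 and 46.1 in E690K. The E292V libraries were the lowest and L101P and E690K the highest, and no contrast with WT was called. Without the E292V pair the joint test gave an adjusted p of 0.289, and without E690K 0.0789. ACACA, the carboxylase of lipid synthesis proper, was at 156 and 186 CPM in WT, 160.2 and 162 in the pair labelled KO, 170.4 and 154 in L101P, 201 and 206 in E292V, and 170.5 and 167 in E690K. Both E292V libraries were the highest for ACACA, which was not called jointly (edgeR adjusted p = 0.077) or in E292V (log2 fold change 0.25, SE 0.0886, adjusted p = 0.284). DESeq2 called ACACA in the joint test (adjusted p = 0.016), as did edgeR with no filter on low counts, without the WT pair and without the L101P pair.

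ACLY did not differ between lines by the joint edgeR test (adjusted p = 0.454). Its level was 897 and 936 CPM in WT, 869 and 873 in the pair labelled KO, 978 and 825 in L101P, 958 and 996 in E292V, and 971 and 1006 in E690K. Its 95% intervals against WT together spanned log2 values of -0.258 to 0.292. The lowest and one of the higher levels came from the 2 libraries of the same line, L101P.

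Of the 4 acyl-CoA synthetases, which activate fatty acids for every later step, edgeR called none in the fit reported here. ACSL3 was at 112 to 141 CPM, ACSL4, which prefers arachidonate, at 45.1 to 73.3, and ACSL1 at 20.1 to 31.9. ACSL5 was at 0.158 to 1.05 CPM, with its 2 lowest levels in WT (0.282 and 0.158) and its 2 highest in E690K (0.936 and 1.05). ACSL5 in E690K had an edgeR adjusted p of 0.0532 and was called by DESeq2 (adjusted p = 0.0111), with no filter, with the minimum of 10 counts and without the L101P pair. ACSL1 was called in the joint test by DESeq2 (adjusted p = 0.014), with no filter and without the L101P pair, and ACSL4 with no filter. An exon of ACSL5 overlaps ZDHHC6 on the other strand, which averaged 3985 counts a library against 49.3 for ACSL5. The sources used here do not state whether counting used strand, so it is not known how reads in the shared stretch were assigned.

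In the glycerolipid backbone, from GPAM through the AGPAT acyltransferases to the lipin phosphatases, 1 of 9 genes was called. AGPAT2 (chromosome 9, 136673143 to 136687423, minus strand) makes phosphatidic acid. AGPAT2 was at 122 and 120.4 CPM in WT, 149 and 149.8 in the pair labelled KO, 144 and 180.4 in L101P, 100.3 and 99.0 in E292V, and 153 and 150.2 in E690K. The 6 libraries of the pair labelled KO, L101P and E690K lay above WT and the E292V libraries below it, the reverse of the order for SCD and FADS2. AGPAT2 was called in the joint test (edgeR adjusted p = 0.00133) and higher in L101P than in WT (log2 fold change 0.41, SE 0.091, adjusted p = 0.0267). The L101P call was lost with the KO labels exchanged (adjusted p = 0.0505), without the pair labelled KO (0.0576) and without E690K (0.0599). In the others it was not called: 0.30 in the pair labelled KO (edgeR adjusted p = 0.132), -0.28 in E292V (0.228) and 0.32 in E690K (0.0637). DESeq2 did call AGPAT2 in the pair labelled KO (adjusted p = 0.0486) and in E690K (0.0138), as did edgeR with no filter and without the L101P pair. Without the L101P pair, edgeR also called it in E292V. The joint call was lost without the E292V pair (adjusted p = 0.0714). The other 8 backbone genes were not called. Of the acyltransferases, GPAM, the mitochondrial enzyme of the first step, was at 25.6 to 31.6 CPM, AGPAT1 at 32.0 to 39.4, AGPAT3 at 86.3 to 109, AGPAT4 at 5.97 to 9.59 and AGPAT5 at 52.1 to 67.7. Of the phosphatidate phosphatases, LPIN1 was at 44.3 to 57.0, LPIN2 at 40.9 to 55.4 and LPIN3 at 19.4 to 24.0 CPM. AGPAT3 was called in the joint test without the L101P pair.

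Genes of the choline and ethanolamine branch were steady apart from PEMT and PCYT2. PEMT, which methylates phosphatidylethanolamine to phosphatidylcholine, was at 29.7 and 25.0 CPM in WT, 25.3 and 20.6 in the pair labelled KO, 20.2 and 25.9 in L101P, 26.2 and 26.8 in E292V, and 18.5 and 19.1 in E690K. Both E690K libraries were below the other 8. PEMT was lower in E690K than in WT (edgeR log2 fold change -0.54, SE 0.14, adjusted p = 0.0428), a call lost in 3 of 8 alternatives, which were the exchanged KO labels (0.0542), the fit without the pair labelled KO (0.0583) and the fit without E292V (0.0585). Jointly PEMT was called by DESeq2 (adjusted p = 0.0246), with no filter and without the L101P pair, but not in the reported fit (0.095). PCYT2, which makes CDP-ethanolamine, was called in the joint test and in no contrast with WT (edgeR adjusted p = 0.0436), and the call was lost in 5 of 10 alternatives, with exchanged KO labels (0.065) and without the WT (0.0516), KO (0.0564), E292V (0.227) or E690K pair (0.201). In E690K, PCYT2 was called by DESeq2 (adjusted p = 0.0251) and by edgeR with the minimum of 10 counts or without the L101P pair. PCYT2 was at 36.5 and 36.2 CPM in WT, 39.8 and 41.3 in the pair labelled KO, 39.6 and 42.4 in L101P, 35.1 and 33.2 in E292V, and 43.8 and 45.4 in E690K. Its E690K libraries were the highest and its E292V libraries the lowest. An exon of PCYT2 overlaps ANAPC11 on the other strand, with 8516 counts a library on average against 3150.

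PCYT1A, the rate-limiting enzyme of phosphatidylcholine synthesis, was at 49.5 and 46.9 CPM in WT, 55.8 and 54.8 in the pair labelled KO, 57.3 and 54.9 in L101P, 47.4 and 54.3 in E292V, and 55.2 and 56.6 in E690K. The WT libraries were below those of the pair labelled KO, L101P and E690K. PCYT1A was nonetheless not called, with an edgeR log2 fold change of 0.21 in E690K (SE 0.0876, adjusted p = 0.196) and a joint adjusted p of 0.292. CHPT1, which joins choline to diacylglycerol, was at 74.8 and 66.6 CPM in WT, 74.3 and 62.7 in the pair labelled KO, 71.3 and 72.2 in L101P, 63.7 and 62.5 in E292V, and 66.1 and 63.2 in E690K. Its E292V and E690K libraries were below both WT libraries, and CHPT1 was not called (edgeR joint adjusted p = 0.42). Choline kinase CHKA stayed within 19.0 to 25.2 CPM, and CEPT1, the shared choline and ethanolamine phosphotransferase, within 13.3 to 16.6.

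Serine and glycerol head group genes gave 0 calls of 6 in the joint edgeR test, and 0 by DESeq2. CDS2, which makes CDP-diacylglycerol, was at 116 to 139 CPM and its low-level relative CDS1 at 1.46 to 4.85, the latter called jointly with no filter and without the L101P pair. PGS1, the first enzyme toward phosphatidylglycerol, a surfactant lipid, was at 31.0 to 39.9 CPM. PTDSS2 was at 54.7 to 66.4 CPM and PISD, which turns phosphatidylserine into phosphatidylethanolamine, at 25.8 to 31.6.

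LPCAT1, which re-acylates lysophosphatidylcholine with palmitate in alveolar type 2 cells, was highest in E690K. The gene spans 1456480 to 1523977 of chromosome 5, minus strand. LPCAT1 was at 109.5 and 125 CPM in WT, 124 and 133 in the pair labelled KO, 114 and 134 in L101P, 128 and 143 in E292V, and 144 and 156 in E690K. Both E690K libraries were above both WT libraries. By label, the transduced library was above the untreated one in each line, including the pair labelled KO, where EGFP ran the other way. LPCAT1 was higher in E690K than in WT (edgeR log2 fold change 0.36, SE 0.07, adjusted p = 0.011), a call lost with the KO labels exchanged (adjusted p = 0.0511). The joint call (edgeR adjusted p = 0.0253) was lost with exchanged KO labels (0.107), without WT (0.0728) and without E690K (0.297). It was not called in E292V (0.21, edgeR adjusted p = 0.265), the pair labelled KO (0.13, 0.422) or L101P (0.08, 0.612). LPCAT2 was at 5.57 to 11.7 CPM, LPCAT3, which favours polyunsaturated chains, at 16.1 to 20.7, and LPCAT4 at 52.8 to 66.7, none of them called. LPCAT2, at an edgeR log2 fold change of -0.69 in the pair labelled KO (adjusted p = 0.176) and -0.56 in E690K (0.2), was called in both with no filter, and in the pair labelled KO without L101P. Jointly LPCAT2 was called with no filter and without the L101P pair.

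Of the triacylglycerol and droplet genes, PLIN2, a droplet coat protein, was at 20.7 and 21.1 CPM in WT, 18.0 and 15.3 in the pair labelled KO, 18.4 and 20.5 in L101P, 18.1 and 23.5 in E292V, and 15.5 and 16.2 in E690K. The libraries of E690K, of L101P and of the pair labelled KO were below both WT libraries. PLIN2 was not called, at an edgeR log2 fold change of -0.40 in E690K (SE 0.133, adjusted p = 0.113) and -0.32 in the pair labelled KO (adjusted p = 0.283). With no filter on low counts it was called in E690K at about the same size, and jointly with no filter or without the L101P pair. DGAT1 was at 40.2 to 51.2 CPM and not called. DGAT2 was at 2.61 to 5.44 CPM, with an edgeR log2 fold change of 0.74 in E690K (SE 0.21, adjusted p = 0.0627), and was called there by DESeq2 (adjusted p = 0.0259), with no filter and without the L101P pair.

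L101P differed from the mean of E292V and E690K in 3 members, and each of the 3 rested on the E292V pair. SCD was lower (edgeR log2 fold change -0.41, SE 0.0996, adjusted p = 0.0319), ELOVL7 was lower (-0.61, SE 0.141, adjusted p = 0.026) and AGPAT2 was higher (0.40, SE 0.0776, adjusted p = 0.0116). That is 6.67% of the 45 members, against 5.79% of all genes tested. Called lower were 2 members, against 2.04% of all genes, and called higher 1, against 3.75%. As the levels above show, the 2 lines averaged here lay on opposite sides of WT for SCD and AGPAT2. For ELOVL7 their edgeR log2 fold changes against WT also had opposite signs, 0.20 in E292V and -0.47 in E690K. Neither was called, and the E292V libraries overlapped those of WT. The ELOVL7 call was also lost without the pair labelled KO (adjusted p = 0.0516) and with its labels exchanged (0.0524), and DESeq2 called FASN and LPCAT1 besides the 3. Without the E292V pair, 0 members were called and SCD had the opposite sign at 0.16. Without the E690K pair 6 were called, the same 3 with ACACB, FASN and FADS2. The shares of all genes in these alternative fits are not given.

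Between libraries labelled untreated and transduced, edgeR called no member. As given above, EGFP in E690K was at 16.5 and 18.5 CPM, it was present in untreated WT, and the KO pair ran the other way, so that these labels only partly separate libraries by vector RNA; its part in the absence of calls was not tested. With the 5 lines as replicates, edgeR called 0 of 45 members and 0% of all genes tested. At an unadjusted p under 0.05 there were 6 of 45 (13.3%, against 6.88% of all genes), and DESeq2 called 0 members, against 0.814% of the genes it gave an adjusted p. The 6 were ELOVL5, ACSL4, AGPAT4, LPIN2 and LPCAT1 above their untreated level and PGS1 below it. LPCAT1 had the smallest adjusted p, at 0.401 by edgeR, with a log2 change of 0.16 (SE 0.0443, 95% interval 0.0616 to 0.254). By label, LPCAT1 was higher in the transduced library in 5 of 5 lines, as were ELOVL6, AGPAT4 and LPCAT4, and 0 members were lower in all 5. The shares of all genes that went 1 way in all 5 lines are not given, so these counts do not speak of the members in particular. In the pair labelled KO, the library labelled transduced had less EGFP, at 0.050 CPM against 37.9. LPCAT1, ELOVL6, AGPAT4 and LPCAT4 were thus lower there in the library with more EGFP. Edges of the 95% intervals were -0.135 and 0.176 for SCD, -0.211 and 0.139 for FASN, -0.108 and 0.133 for PCYT1A, -0.212 and 0.0177 for CHPT1 and -0.103 and 0.262 for PLIN2. Exchanging the labels of the KO pair also gave 0 calls.

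Changes within single lines, for which there is no replicate, were small for most members. The median log2 change over the 45 members was 0.07 in both WT and L101P, 0.04 in E292V, and 0.02 in both E690K and the pair labelled KO. With all 45 members included, the spread was narrowest in E690K (SD 0.128) and widest in L101P (SD 0.294). The L101P value includes ACSL5 at 1.36, from 19 and 77 counts. No SD without ACSL5 is given, so the order of the lines may rest on that gene. SCD was higher in the transduced library in WT, E292V and E690K and lower in the other 2 lines. FASN was at -0.43 in L101P, the lowest change of any member there, and LPCAT2 was the highest in WT at 0.73. These are differences between single libraries.

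**Figure D5:**
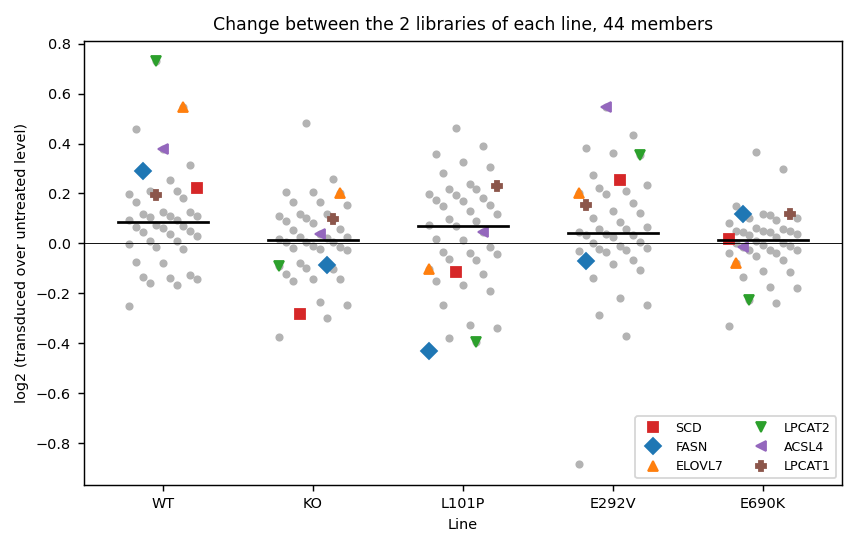
Log2 difference, transduced minus untreated library, in each line for 44 member genes, without ACSL5 and PCYT1B, with 6 genes coloured and named and the median of the 44 as a bar. Most points lie near 0 in each line. FASN in L101P is at -0.43 and LPCAT2 in WT at 0.73. LPCAT1 is above 0 in 5 of 5 lines by label, and EGFP runs against the labels in the pair labelled KO.

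The main transcription factors of these genes were not called, while INSIG1 was. SREBF1 was not called in any contrast with WT (edgeR log2 fold change -0.28 in E690K, -0.18 in the pair labelled KO, -0.06 in E292V and -0.02 in L101P), nor was SREBF2 (-0.23, -0.03, -0.03 and -0.10 in the same order). INSIG1, which holds the SREBP precursors in the endoplasmic reticulum and is itself an SREBP target, was called lower in L101P (-0.46, edgeR adjusted p = 0.0497) and E690K (-0.57, adjusted p = 0.016). INSIG1 stood at 35.9 and 40.6 CPM in WT, 26.9 and 28.4 in L101P, and 24.9 and 26.5 in E690K. Its E292V libraries, at 40.6 and 51.7, were not called against WT (0.27). The joint test called 6 of 19 regulators, against 13.0% of all genes. Of the 19, 3 were called lower in E690K, 2 each in L101P and E292V and 1 in the pair labelled KO, and 0 were called higher, against 5.38%, 3.94%, 1.05% and 1.80% of all genes called in either direction. MID1IP1, an activator of acetyl-CoA carboxylase, was lower in E292V (-0.64, adjusted p = 0.00486). PPARGC1A, a coactivator of oxidative metabolism, was lower in the pair labelled KO, where its 2 libraries held 4 and 0 counts against 42 and 34 in WT.

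Cholesterol synthesis genes, which share SREBP control, included 13 of 22 called in the joint test, against 13.0% of all genes. This list too was chosen with earlier results of these data known. Against WT, 5 were called lower in E690K, where 2.33% of all genes were, and 0 higher, 1 lower in L101P, 1 higher and 1 lower in E292V, and 0 in the pair labelled KO. DHCR7, the last reductase of the pathway, was lower in E690K (edgeR log2 fold change -0.51, adjusted p = 0.0087) and L101P (-0.42, adjusted p = 0.0294). ACAT2 was lower in E690K (-0.45) and the sterol isomerase EBP in E292V (-0.46, adjusted p = 0.031).

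In the joint test, edgeR called 6 of 32 related synthesis enzymes, 1 of 23 genes of fatty acid oxidation, 5 of 15 of lipid uptake and binding, 4 of 15 phospholipases and transfer proteins and 6 of 16 droplet and lipase genes, against 13.0% of all genes. Against WT, edgeR called 5.38% of all genes in E690K, 3.94% in L101P, 1.80% in the pair labelled KO and 1.05% in E292V. Of the 32 related synthesis enzymes, 1 was called higher in the pair labelled KO, 1 lower in E292V, 1 higher and 2 lower in E690K, and 0 in L101P. ELOVL4, an elongase of very long chains, was lower in E292V (edgeR log2 fold change -1.61), and the ethanolamine kinase ETNK2 (-0.95) and the dehydratase HACD4 (-0.68) were lower in E690K. Of 23 genes of fatty acid oxidation 1 was called, the electron transfer flavoprotein ETFA in E690K (-0.29). Of 15 genes of lipid uptake and binding, 2 were called in L101P and 2 in E690K, among them the lipoprotein receptor VLDLR (-1.33) and the fatty acid transporter SLC27A2 (0.70) in L101P and the bile acid and fatty acid CoA ligase SLC27A5 (-0.72) in E690K. Of 15 phospholipases and transfer proteins, PLD6 (0.63) and PLD1 (-0.50) were called in E690K and 0 in the other lines.

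Of the lipid droplet and lipase genes, MGLL was called in 3 lines. MGLL, which cleaves monoacylglycerol, was at 102 and 99.7 CPM in WT, 161 and 184 in the pair labelled KO, 175 and 238 in L101P, 78.1 and 72.9 in E292V, and 179 and 198 in E690K. It was higher than WT in the pair labelled KO (edgeR log2 fold change 0.77, adjusted p = 0.00464), L101P (1.02, adjusted p = 8.6e-04) and E690K (0.90, adjusted p = 5.9e-04), with E292V below WT and not called (-0.42). The droplet protein CIDEC was higher in L101P (1.12) and lower in E292V (-1.47), and HILPDA, an inhibitor of droplet lipolysis, was lower in E690K (-0.70) and L101P (-0.48). Of 16 droplet and lipase genes tested, 3 were called in each of L101P and E690K, and 1 in each of E292V and the pair labelled KO. In the vector comparison 0 genes of these lists were called.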

How the data were processed

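RNA was extracted from lifted A549 cells and sequenced as total RNA, per the labels' protocols. The authors deposited whole-number counts per gene. The submitters' processing notes name featureCounts, Subread, edgeR, limma and GRCh38, and the strand setting, the treatment of reads with several matches and the annotation are not given in the sources used here. Even values made up 81.4% of the deposited counts from 1 to 10 and 51.5% of the large ones. Standard errors were the absolute log2 fold change divided by the square root of edgeR's quasi-likelihood F. The 95% intervals used these with 12.4 degrees of freedom, more than the residual ones because edgeR borrows information across genes. They include the spread between libraries.

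Counts were analysed in R 4.3.3 with edgeR 4.0.16 (TMM scaling, filterByExpr, glmQLFit, glmQLFTest, Benjamini-Hochberg adjustment over 17978 genes, threshold 0.05). One fit of line plus vector over the 10 libraries left 4 residual degrees of freedom, with the line as block. The common dispersion was 0.0168. Pairs come from the lines, and within-pair correlations of deviations over all genes were 0.18 to 0.437. Over the members they were 0.0105 in L101P, 0.546 in the pair labelled KO, 0.68 in WT, 0.719 in E292V and 0.838 in E690K. Deviations of the members were thus almost uncorrelated between the L101P libraries. Member results for L101P average over that pair, and the part of this in its calls was not tested. The script was also run on simulated libraries without pair structure and with known changes in E690K alone. Its recovery at the fold changes reported here is not given, and no result rests on it. Alternatives were DESeq2 1.42.0 size factors and test, other filters, exchanged labels of the KO pair, and leaving out each line's pair.

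Every member is named. Full values go to members called in any line comparison and to ACLY, ACACA, FASN, SCD, LPCAT1, PCYT1A, CHPT1 and PLIN2. From each other list, at most the 3 called genes with the largest difference from WT are named, plus SREBF1, SREBF2, INSIG1 and ABCA3. The members and the lists were chosen with earlier results of these data known. Positions come from GENCODE 29 and start regions from RefSeq.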

Additional observations from a re-analysis of the deposited data

Results flagged for a closer look

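Changes from the untreated to the transduced library were compared over the 5 lines for 17 members. In 2 of the 17, a line stood so far from the others that its gap to the nearest exceeded 0.71 of the whole range, and about 1 set in 20 does so by chance. AGPAT2 differed by a log2 value of 0.33 in L101P (0.327), where the nearest line was at 0.00674 and the far end at -0.0275. ACLY differed by -0.25 in L101P (-0.245), where the nearest line was at 0.00647 and the far end at 0.0614. Both are differences between 2 single libraries of the same line, and the 2 genes went in opposite directions.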

How the results depend on the processing

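With no filter on low counts, members called numbered 18 for any line difference, 5 for KO, 1 for E292V and 11 for E690K against WT, and 5 for L101P against the mean of E292V and E690K. DESeq2's test called 4, 9 and 5 for KO, E690K and that mean contrast, where it called 740, 1463 and 1476 of all genes. For the other alternatives the all-gene counts are not given, so their member counts may only follow the calls over all genes. With the labels of the KO pair exchanged, 7, 1, 1 and 3 were called for any line difference, KO, L101P and E690K. Leaving out each line's pair in turn gave 3 to 19 for any line difference, 1 to 5 for KO, 2 to 3 for L101P, 0 to 1 for E292V, 4 to 11 for E690K and 0 to 6 for the mean contrast. The vector count was 0 throughout, including 0 without the replicate block; the blocked fit is the one reported.

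Of 225 alternative values for 25 called gene results, 180 were still called in the same direction, 44 were no longer called and 1 reversed: SCD in the mean contrast, 0.163 without E292V (-0.981 to 0.163). Of 375 values for 43 results not called, 356 stayed so in the same direction, 10 were called and 9 reversed. Reversed vector effects were CHPT1 at 0.000954 with exchanged KO labels and, with 1 pair left out, ACLY (-0.0368 to 0.0461, reversed without L101P), FASN (-0.122 to 0.0646, L101P), ACACA (-0.0352 to 0.0715, WT), SCD (-0.0425 without E292V to 0.0972, and -0.0346 without WT), PCYT1A (-0.0372 to 0.0337, E292V) and PLIN2 (-0.000128 to 0.159, E292V). PLIN2 in the mean contrast ran from -0.0925 without E690K to 0.29. The cause was not tested. With 1 library per line and treatment, clone and genotype cannot be told apart, and members at few counts, such as ACSL5, are the least precise.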
